A study of Mus musculus with 4 samples.

Results

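The SR proteins and the heterogeneous nuclear ribonucleoproteins (hnRNPs) are large families of RNA-binding proteins that help decide which splice sites of a pre-mRNA are used. Their genes were taken as the coding RefSeq entries whose symbol begins with Srsf or Hnrnp, or with the older forms Sfrs and Hnrp, with 1 entry per symbol, the one with the highest mean value. This gave 31 genes, 11 of the *Srsf* and 20 of the *Hnrnp* family, of 20614 gene symbols with a coding entry in the table. Of these 31 genes, 30 had a mean of at least 1 RPKM and were tested, and *Srsf12* did not reach it.

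The samples were whole pancreatic islets, in which insulin-producing beta cells are mixed with glucagon-producing alpha cells and other endocrine cells. Islets of adult wild type male C57bl6 mice, 3 months of age, were pooled, spent a night in RPMI medium with 11 mM glucose and were starved at 2.8 mM glucose for 2 h. They were next kept at 2.8 mM glucose (the LoGlu group) or at 16.8 mM glucose (the HiGlu group), with 2 libraries in each group and 100 islets per library. The sample labels give 2 h for LoGlu and 12 h for HiGlu, whereas the design text gives 12 h for both, so that glucose and time in culture cannot be told apart if the sample labels are right. The question of the comparison was which islet transcripts differ between low and high ambient glucose. The labels do not say that the 2 libraries of a group came from different animals, so p-values measure the spread between these libraries, which may be technical.

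SR proteins bind enhancer sequences in exons through RNA recognition motifs and recruit the splicing machinery through a domain rich in arginine and serine, whose phosphorylation sets their location and activity. Many hnRNPs bind pre-mRNA as it is made and often act against SR proteins at the same exons. Several genes of both families limit their own mRNA by including a poison exon, which sends the transcript to nonsense-mediated decay. In beta cells, alternative splicing shapes transcripts of the secretory and ion channel machinery.

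Values are RPKM, the read number of an entry divided by its length in kilobases and by the sequencing depth. In this table the kilobases were taken to be those of the genomic span from first to last base of a transcript, introns included. An intron-rich gene then has a low RPKM. The values fitted whole reads over such a span for 12 of the 31 genes, and for *Hnrnpf* through another entry. The span was approximate for 18. Whether reads in introns were counted was not tested. The recovered depth was 58460000 and 51960000 reads in LoGlu replicates 1 and 2 and 60710000 and 50800000 reads in HiGlu replicates 1 and 2. Replicate 1 was above replicate 2 for 84.5% of all tested transcripts at LoGlu and 85.7% at HiGlu, and for 29 of the 30 splicing factors in each group. The median splicing factor was higher in replicate 1 by 0.11 at LoGlu and by 0.12 at HiGlu on the log2 scale. This offset is part of the spread in tests of the values as deposited, unless the replicate number was in the fit.

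The islet label was checked with marker genes. The 7 beta cell markers summed to 22900 and 20550 RPKM at LoGlu and to 43720 and 40940 RPKM at HiGlu, and 6 of the 7 rose. The alpha cell markers summed to 1698 to 2217 RPKM at LoGlu and 1538 to 2172 RPKM at HiGlu, and none of the 5 tested passed the test. The 3 delta cell markers summed to 597.6 and 446.9 RPKM at LoGlu and to 703.4 and 695.3 RPKM at HiGlu, and none passed. *Ppy*, the marker of PP cells, ranged from 728.6 to 1138 RPKM and did not pass, and of the 4 duct markers tested 1 rose and 1 fell. The 10 acinar markers summed to 105.5 and 300.2 RPKM at LoGlu and to 255.6 and 528.8 RPKM at HiGlu, so exocrine RNA was present in every library, differed between replicates and passed the test for none of the 10 genes. Endothelial markers summed to at most 3.22 RPKM, macrophage and leukocyte markers to at most 16.4 RPKM, of which *Cd68* made up 6.76 to 9.74 RPKM, and stromal markers to at most 4.10 RPKM in any library, and no marker in the table was at 0. The part of cell composition in the results on splicing factors was not tested, and in such bulk samples fewer cells of a type and less RNA per cell cannot be told apart.

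**Figure D1:**
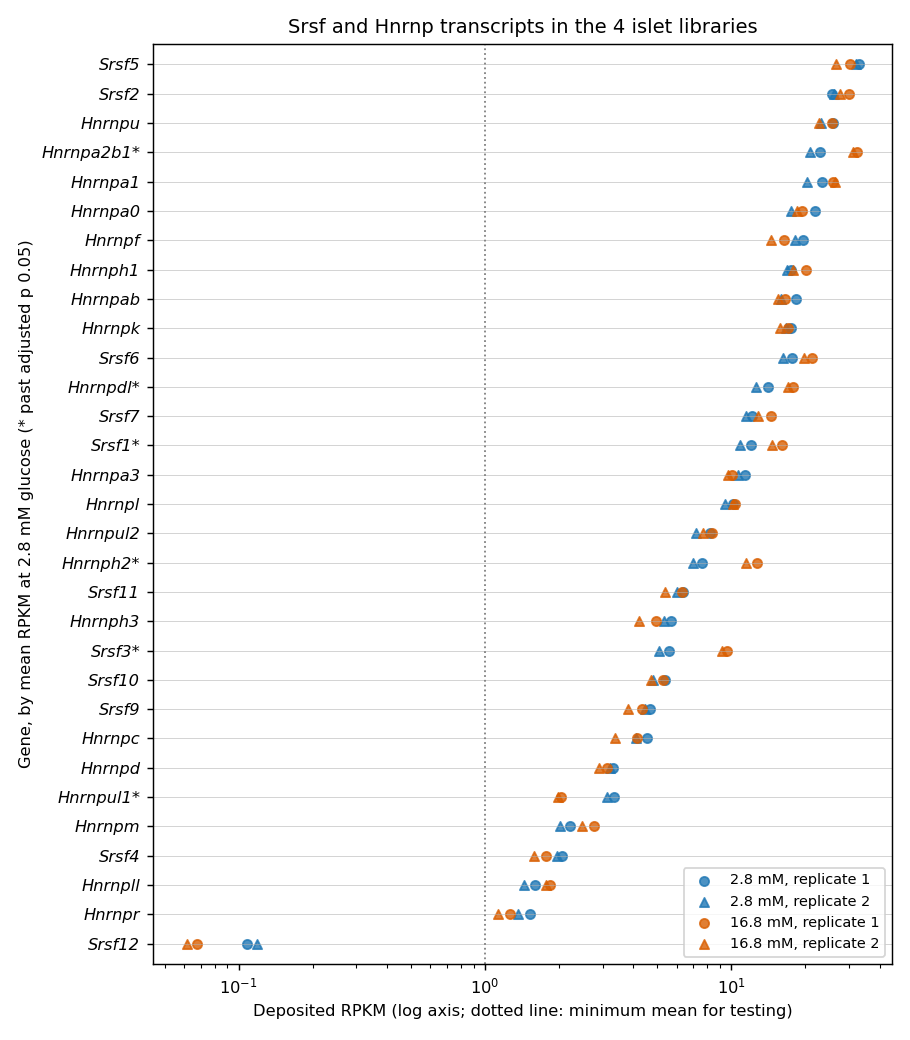
RPKM of the 31 *Srsf* and *Hnrnp* genes (log axis) in each of the 4 libraries, ordered by the mean at 2.8 mM glucose; circles are replicate 1 and triangles replicate 2. The HiGlu points of *Srsf3* (9.64 and 9.19 RPKM) and *Hnrnph2* lie right of their LoGlu points, those of *Hnrnpul1* lie left, and *Srsf12* lies below the minimum mean of 1 RPKM.

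At 16.8 mM glucose, 5 of the 30 splicing factors rose and 1 fell at an adjusted p of 0.05 (limma on log2(RPKM + 0.5), Benjamini-Hochberg adjustment over all 7867 entries tested). *Srsf3*, *Hnrnph2*, *Hnrnpa2b1*, *Srsf1* and *Hnrnpdl* were higher by 1.31 to 1.77 times in mean RPKM, and *Hnrnpul1* was lower, at 0.623 of its LoGlu mean. Of all entries tested, 33.4% were called in either direction, 10.7% higher and 22.8% lower. Of the splicing factors, 20% were called, 16.7% higher and 3.33% lower. The 6 called splicing factors thus leaned to the higher side in this fit, whereas the calls over the whole table leaned to the lower side. With no minimum RPKM, 2 were higher and 2 lower (2.96% and 6.17% of all entries). With limma and voom on rebuilt reads, 8 were higher and 6 lower (13.4% and 28.8%). The lean therefore rests on few calls and depended on the fit. The median log2 fold change was -0.02 over the 30 splicing factors and -0.11 over all 7867 entries, and 21 of the 30 lay above the latter. Both HiGlu libraries were above both LoGlu libraries for 13 of the 30 (22.2% of all entries), both were below for 9 (48.3% of all entries), and the groups overlapped for the other 8.

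How many members were called depended on the scaling of the libraries. With quantile normalization 9 splicing factors were higher and 2 lower, against 20% and 27.4% of all entries. With the libraries centred on their medians 12 were higher and 2 lower, against 21.1% and 26.7% of all entries. The share of all calls that were higher was 31.9% as deposited, 42.3% with quantile normalization and 44.1% with median centring. All 6 genes called as deposited were called in the same direction under both, and *Hnrnpll*, *Hnrnpm*, *Srsf6* and *Srsf7* were called higher under both and not as deposited.

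**Figure D2:**
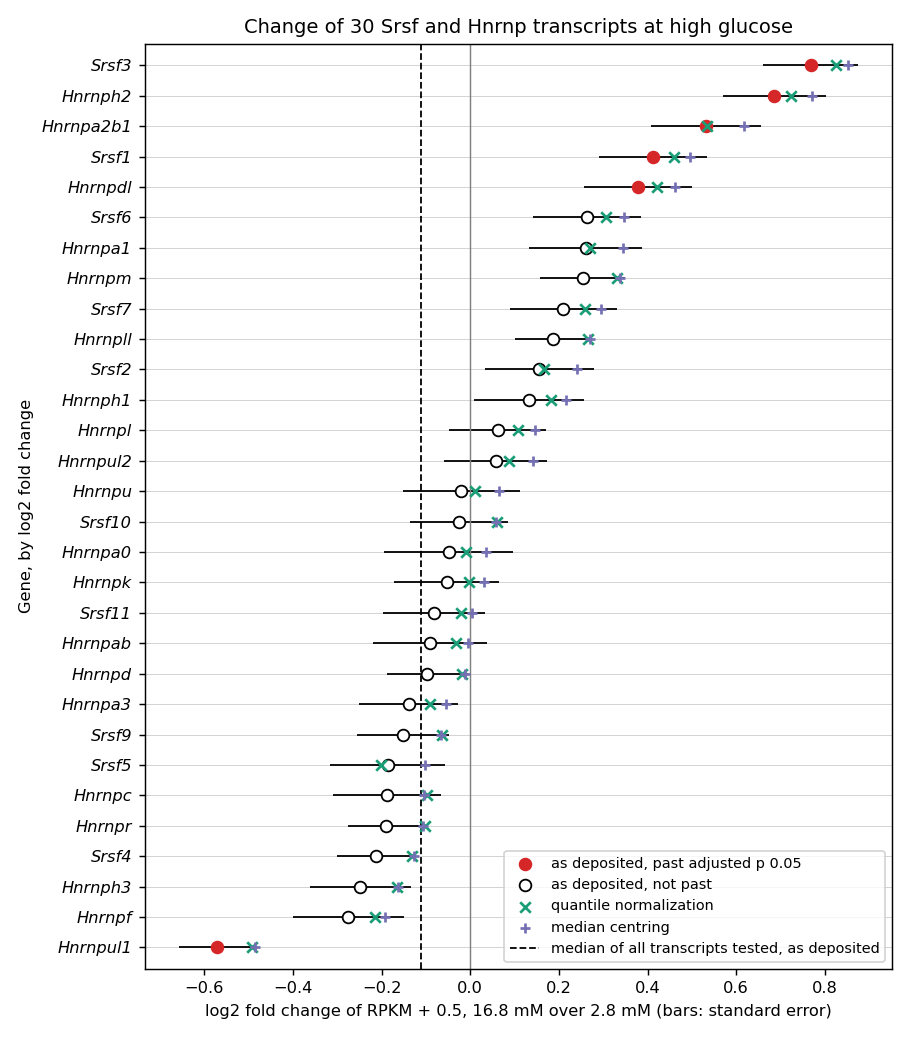
Log2 fold change of RPKM + 0.5 at 16.8 mM over 2.8 mM glucose for the 30 tested genes, with standard errors from limma; filled red points passed an adjusted p of 0.05 as deposited, crosses and plus signs are the values with quantile normalization and median centring, and the dashed line is the median of all 7867 entries (-0.11). *Srsf3*, at 0.77, and *Hnrnpul1*, at -0.57, lie at the 2 ends under each scaling.

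The largest rise was that of *Srsf3* (chromosome 17, 29169618 to 29180311, plus strand, NCBI build 37), the smallest SR protein, which acts in splicing, mRNA export and the choice of 3′ ends. It measured 5.58 and 5.08 RPKM at LoGlu and 9.64 and 9.19 RPKM at HiGlu, which is 3496 and 2826 reads against 6271 and 5001 reads over its span. Both HiGlu libraries were well above both LoGlu libraries, and the difference exceeded the replicate spread. The mean rose from 5.33 ± 0.36 to 9.42 ± 0.32 RPKM (SD, n = 2), a log2 fold change of 0.77 ± 0.11 (SE, limma, adjusted p = 0.0029).

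*Hnrnph2* (chromosome X, 131135718 to 131141599, plus strand) encodes an hnRNP of the F/H group, which binds runs of G in exons and introns. It measured 7.612 and 7.003 RPKM at LoGlu and 12.7 and 11.5 RPKM at HiGlu, or 2567 and 2099 reads against 4435 and 3358 reads. The groups did not overlap and the mean rose 1.65 times, a log2 fold change of 0.69 ± 0.12 (SE, limma, adjusted p = 0.0057). Its close relative *Hnrnph1* measured 17.5 and 16.9 RPKM at LoGlu and 20.1 and 17.8 RPKM at HiGlu, and its log2 fold change of 0.13 did not pass (limma, adjusted p = 0.44). The other members of the group had lower values at HiGlu that were not called, with a log2 fold change of -0.28 for *Hnrnpf* and -0.25 for *Hnrnph3* (limma, adjusted p = 0.13 for each). The 2 groups of libraries did not overlap for any of these 4 genes, and *Hnrnph2* alone was called. Such separation was common, with both HiGlu libraries above both LoGlu libraries for 22.2% of all entries and below both for 48.3%. The paralogues *Hnrnph1* and *Hnrnph2* have very similar coding sequences, and the handling of reads that align to more than 1 place is not given in the sources used here.

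*Hnrnpul1* (chromosome 7, 26506517 to 26539749, minus strand), a relative of hnRNP U with a role in the response to DNA breaks, was the single member that fell. It measured 3.33 and 3.13 RPKM at LoGlu and 2.04 and 1.98 RPKM at HiGlu. The groups did not overlap, and the 2 HiGlu libraries differed by less than the gap to LoGlu. The log2 fold change was -0.57 ± 0.09 (SE, limma, adjusted p = 0.0040). A second coding entry of the gene, at 2.17 and 2.10 RPKM against 1.37 and 1.33 RPKM, gave -0.51 (limma, adjusted p = 0.0041). This entry comes from the same libraries and may count the same reads, so it is not independent support. *Hnrnpu* itself, a scaffold protein of the nuclear matrix, measured 25.8 and 23.2 RPKM at LoGlu and 25.5 and 22.8 RPKM at HiGlu, and *Hnrnpul2* measured 8.18 and 7.22 against 8.36 and 7.68 RPKM. The groups overlapped for both, and neither passed the test (log2 fold changes of -0.02 and 0.06, limma, adjusted p = 0.91 and 0.73).

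The calls of *Srsf3*, *Hnrnph2* and *Hnrnpul1* held under each of the 15 alternatives tried. Their promoters, the 250 bases before the start of the RefSeq transcript in GRCm38.p6, are shown for that reason, 5′ to 3′ on the gene's strand, with capitals for any match on either strand to 5 motifs. These were the CCAAT box (CCAAT), the GC box (GGGCGG), the TATA box (TATAAA), the E-box (CACGTG) and an ETS site (CCGGAAGT). No one of these motifs contains another.
Srsf3, chr17:29032410-29032659, plus strand: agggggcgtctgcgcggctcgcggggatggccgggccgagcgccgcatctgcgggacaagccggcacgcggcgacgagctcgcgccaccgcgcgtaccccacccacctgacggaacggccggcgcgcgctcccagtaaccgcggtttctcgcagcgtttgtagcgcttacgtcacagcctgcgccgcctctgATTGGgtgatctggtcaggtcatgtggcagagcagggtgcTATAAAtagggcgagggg
Hnrnph2, chrX:134600929-134601178, plus strand: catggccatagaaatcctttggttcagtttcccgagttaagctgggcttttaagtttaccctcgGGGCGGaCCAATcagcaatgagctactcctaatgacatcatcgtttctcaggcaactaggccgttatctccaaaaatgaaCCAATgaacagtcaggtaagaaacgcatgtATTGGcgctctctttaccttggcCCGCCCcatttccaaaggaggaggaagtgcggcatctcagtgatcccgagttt
Hnrnpul1, chr7:25754760-25755009, minus strand: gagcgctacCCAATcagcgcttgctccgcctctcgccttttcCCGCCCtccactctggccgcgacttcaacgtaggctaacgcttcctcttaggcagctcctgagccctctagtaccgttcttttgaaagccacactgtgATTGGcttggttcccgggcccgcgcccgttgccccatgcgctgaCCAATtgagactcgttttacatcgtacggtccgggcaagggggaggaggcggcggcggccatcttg
*Srsf3* had a TATAAA beginning 18 bases before the start and an inverted CCAAT 58 bases before it. *Hnrnph2* had 3 CCAAT matches, at 76, 106 and 179 bases, the first of them inverted, and 2 GC boxes. *Hnrnpul1* had 3 CCAAT matches and 1 GC box. A CCAAT match thus stood both in the promoters of the strongest risers and in that of the gene that fell. A promoter was found for 29 of the 31 genes, and a gene with several was counted once if any of them held a motif. Over the 29, CCAAT stood in 16 genes (37.5% of 27025 genes with a promoter) and GGGCGG in 24 (35.4%). TATAAA stood in 3, *Srsf2*, *Srsf3* and *Hnrnpm* (14.3%). CACGTG stood in 3, *Hnrnpa3*, *Hnrnpd* and *Hnrnpf* (6.86%), and CCGGAAGT in 5, *Srsf4*, *Srsf5*, *Srsf11*, *Hnrnpd* and *Hnrnpf* (3.23%). None of the 5 genes called higher held CACGTG or CCGGAAGT in this window, and neither did *Hnrnpul1*, which fell. Both motifs are rare over all genes, so their absence from so few genes sets none apart. A match is a match of letters and not a measured site. The 29 genes had 41 promoters. The 27025 genes were not limited to coding genes or matched for promoter number, so their shares are not a like comparison.

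Of the A and B group of hnRNPs, which often silence exons and also carry mRNA in the cytoplasm, *Hnrnpa2b1* (chromosome 6, 51410433 to 51419893, minus strand) was the member that rose. It measured 22.9 and 20.8 RPKM at LoGlu and 32.4 and 31.2 RPKM at HiGlu. This was the largest absolute gain of the 31 genes, from 21.8 ± 1.4 to 31.8 ± 0.89 RPKM (SD, n = 2), a log2 fold change of 0.53 ± 0.12 (SE, limma, adjusted p = 0.018). Without HiGlu replicate 1 the log2 fold change was 0.50 and the adjusted p 0.094, and without HiGlu replicate 2 they were 0.56 and 0.082 (limma). *Hnrnpa1*, the best known splicing repressor of the family, measured 23.3 and 20.4 RPKM at LoGlu and 25.99 and 26.37 RPKM at HiGlu. Its groups did not overlap, and its log2 fold change of 0.26 did not pass the test (limma, adjusted p = 0.15). *Hnrnpa0*, *Hnrnpab* and *Hnrnpa3* had log2 fold changes of -0.05, -0.09 and -0.14 and did not pass the test. *Hnrnpa1* and *Hnrnpa3* have processed pseudogenes in the mouse genome, with which their reads may be shared.

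*Srsf1*, the prototype SR protein, lies on chromosome 11 (87860875 to 87867257, plus strand). It measured 12.0 and 10.9 RPKM at LoGlu and 16.1 and 14.7 RPKM at HiGlu, without overlap. The log2 fold change was 0.41 ± 0.12 (SE, limma, adjusted p = 0.039). The call was lost without HiGlu replicate 1 (adjusted p = 0.20, limma), HiGlu replicate 2 (0.096) and LoGlu replicate 2 (0.093). *Hnrnpdl*, a relative of the mRNA decay factor *Hnrnpd*, lies on chromosome 5 (100462596 to 100468683, minus strand) and measured 14.0 and 12.6 RPKM at LoGlu and 17.9 and 17.0 RPKM at HiGlu. Its groups did not overlap, but at a log2 fold change of 0.38 ± 0.12 it lay next to the threshold (SE, limma, adjusted p = 0.0499). It lost the call without HiGlu replicate 1 (adjusted p = 0.21, limma), HiGlu replicate 2 (0.16) or LoGlu replicate 2 (0.15). With each library left out in turn, the log2 fold change ran from 0.34 to 0.48 for *Srsf1* and from 0.30 to 0.46 for *Hnrnpdl*. *Hnrnpd* measured 3.32 and 3.22 RPKM at LoGlu and 3.14 and 2.91 RPKM at HiGlu and did not pass the test (log2 fold change -0.10, limma, adjusted p = 0.44).

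Among the 8 classical SR genes, 2 rose, and the other 6 did not pass the test. Of all entries tested, 10.7% were called higher and 22.8% lower, and 8 genes are too few to set the group apart. *Srsf6*, at 17.6 and 16.2 against 21.2 and 19.6 RPKM, *Srsf7*, at 12.1 and 11.4 against 14.6 and 12.9 RPKM, and *Srsf2*, at 25.7 and 26.1 against 30.1 and 27.7 RPKM, had both HiGlu libraries above both LoGlu libraries. SRSF7 is a close relative of SRSF3 that also works in mRNA export, and SRSF2 marks the nuclear speckles where splicing factors are stored. Their log2 fold changes were 0.26, 0.21 and 0.16 (limma, adjusted p = 0.14, 0.21 and 0.36). *Srsf4*, *Srsf5* and *Srsf9* had both HiGlu libraries below both LoGlu libraries, with log2 fold changes of -0.21, -0.19 and -0.15 (limma, adjusted p = 0.10, 0.30 and 0.29). Of all entries tested, both HiGlu libraries were above both LoGlu libraries for 22.2% and below both for 48.3%, so such a position alone is common. The log2 fold changes ran from -0.21 to 0.77, with a median of 0.07 over the 10 *Srsf* genes tested, and no gene on the lower side was called.

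Of the other SR genes, *Srsf10*, which turns into a general splicing repressor when it is dephosphorylated, measured 5.39 and 4.81 RPKM at LoGlu and 5.29 and 4.72 RPKM at HiGlu, and *Srsf11* measured 6.36 and 6.04 against 6.32 and 5.38 RPKM. The groups overlapped for *Srsf10* and *Srsf11*. The separate entries of each differed in the sign of the fold change, from -0.03 to 0.03 for *Srsf10* and from -0.08 to 0.02 for *Srsf11*, and none was called. *Srsf12*, which antagonises classical SR proteins, was at 0.11 and 0.12 RPKM at LoGlu and 0.07 and 0.06 RPKM at HiGlu, or 154 and 150 reads against 100 and 76 reads over its span. Its HiGlu mean was 0.569 of its LoGlu mean. It was left out of the test by the minimum of 1 RPKM, and in the fit on rebuilt reads its log2 fold change was -0.80 (limma with voom, adjusted p = 0.0074).

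Of the remaining hnRNP genes, *Hnrnpm* (2.22 and 2.01 against 2.77 and 2.47 RPKM) and *Hnrnpll* (1.60 and 1.45 against 1.84 and 1.76 RPKM), a regulator of *Ptprc* splicing in lymphocytes, had higher HiGlu values without overlap. Their log2 fold changes of 0.25 and 0.19 did not pass the test (limma, adjusted p = 0.081 and 0.13). *Hnrnpr* and *Hnrnpc*, which packages pre-mRNA by binding runs of U, each had a log2 fold change of -0.19 (limma, adjusted p = 0.13 and 0.27), and the groups overlapped for *Hnrnpc*. *Hnrnpl*, which binds CA repeats, had 10.2 and 9.46 RPKM at LoGlu and 10.3 and 10.2 RPKM at HiGlu, with a log2 fold change of 0.06 (limma, adjusted p = 0.69). Over the 20 *Hnrnp* genes, the median log2 fold change was -0.03.

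*Hnrnpk*, a protein with KH domains that binds runs of C, is the host gene of *Mir7-1*, one of the genes of miR-7, a microRNA abundant in islets. The mature sequences (RefSeq, GRCm38.p6) are shown because this microRNA is read from the RNA of a member, with the seed, bases 2 to 8, in capitals.
miR-7a-5p: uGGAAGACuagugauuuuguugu
miR-7a-1-3p: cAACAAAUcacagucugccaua
*Mir7-1* lies inside *Hnrnpk* on the same strand (chromosome 13, 58494140 to 58494247 in NCBI build 37, within 58492503 to 58504704). *Hnrnpk* measured 17.5 and 16.6 RPKM at LoGlu and 17.1 and 15.8 RPKM at HiGlu, and *Mir7-1* 19.8 and 14.6 against 15.5 and 16.4 RPKM, from 81 to 124 reads. The groups overlapped for both, and neither passed the test (log2 fold changes of -0.05 and -0.09, limma, adjusted p = 0.75 and 0.70). Reads of the TruSeq libraries that fall on *Mir7-1* are reads of its longer RNA, not of the mature microRNA.

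Other annotated genes overlapped 12 of the 31 genes, and without strand their reads cannot be told apart. *Srsf2* shares 655 bases with *Mfsd11* on the opposite strand, which fell (2.29 and 2.20 against 1.43 and 1.25 RPKM, log2 fold change -0.58, limma, adjusted p = 0.0039). The gene 1110005A03Rik, also on the opposite strand, covers all 3194 bases of *Srsf2*. *Srsf4* shares 2248 bases with the opposite-strand *Gm12992*, which fell as well (log2 fold change -0.30, limma, adjusted p = 0.029). *Hnrnph3* shares 4079 bases with *Rufy2*, whose log2 fold change of -0.19 did not pass the test (limma, adjusted p = 0.15). What these overlaps add to the values of the splicing factors was not tested.

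Levels of different genes can be compared only per length of RNA. Reads over the span were therefore divided by the summed length of the exons of the coding transcripts. This gives an exon-scaled RPKM, a level that may still hold intronic reads. The span was between 1 and 10.8 times the exon length. By this level, *Srsf5* had the highest mean, with 99.5 and 96.8 at LoGlu and 91.8 and 80.7 at HiGlu, although *Hnrnpa1* was above it in HiGlu replicate 2 with 82.0. *Hnrnpa1* followed with a mean of 74.6 over the 4 libraries, then *Hnrnph1* with 68.6 and *Hnrnpk* with 68.3. *Hnrnpa1*, *Hnrnph1* and *Hnrnpk* had overlapping ranges (63.3 to 82.0, 64.0 to 76.4 and 64.5 to 71.5), so their order is within the spread. *Hnrnpa2b1* stood at 50.1 on average at LoGlu and 72.9 at HiGlu. *Hnrnpc*, a gene with a span 10.8 times its exons, ranked 24 by RPKM with 4.04 RPKM and 9 by exon length with 43.6. The lowest were *Srsf10* at 11.4 and *Srsf12* at 0.69. For 18 genes the span that the authors used was approximate, so that their level per exon length is approximate too, *Hnrnpa1*, *Hnrnph1* and *Hnrnpk* among them. The level also depends on the annotated exon length, which at 1126 bases was shortest for *Hnrnpa1*. Whether the annotated exons are complete was not tested, and missing exon bases would raise the level.

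**Figure D3:**
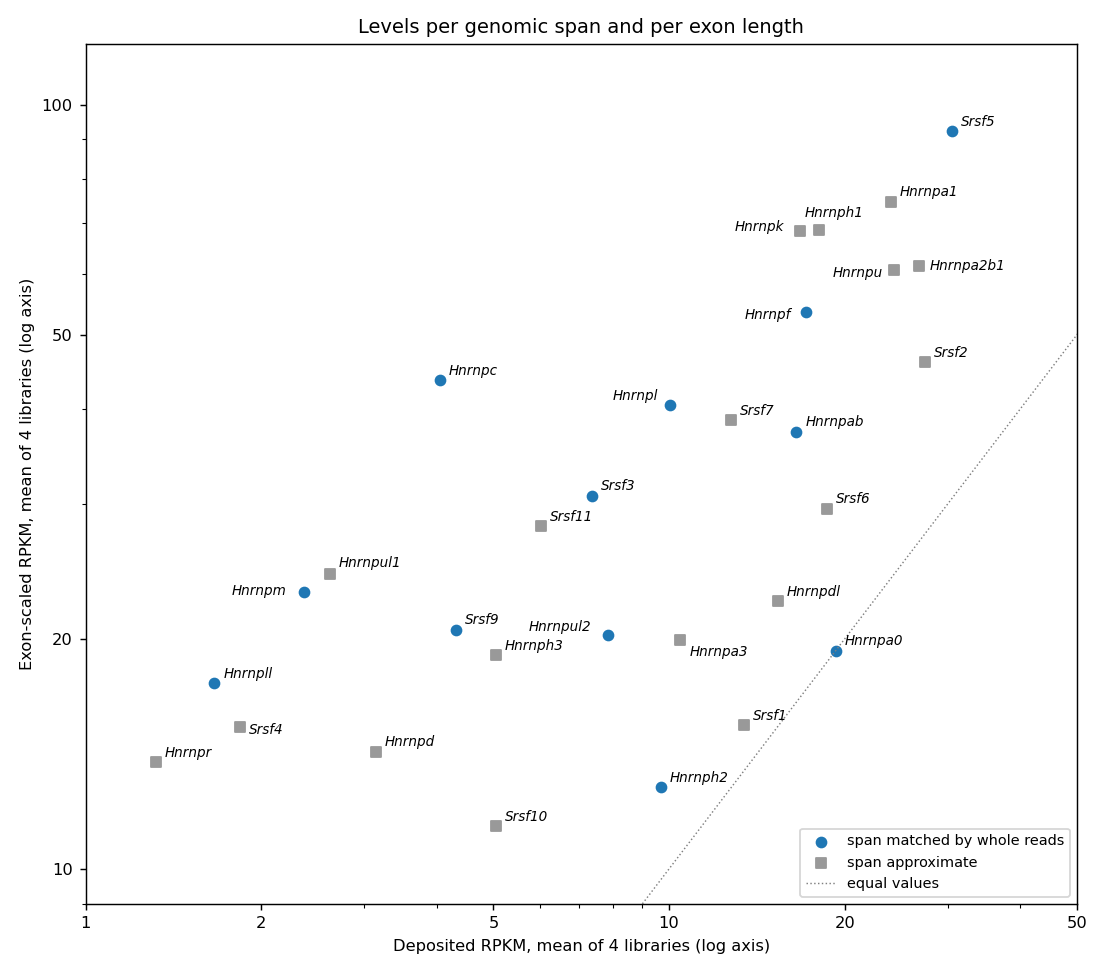
Mean level of the 30 tested genes over the 4 libraries per genomic span (deposited RPKM, horizontal) and per exon length (exon-scaled RPKM, vertical), both on log axes; circles are genes whose span was matched by whole reads and squares those with an approximate span. Genes with long introns such as *Hnrnpc* (4.04 and 43.6) lie far above the dotted line of equal values, and *Hnrnpa0*, with no intron in its span, lies on it.

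The proteins that act on or beside SR proteins and hnRNPs were counted in 7 lists with the same fit. In all, 113 of their genes were tested, of which 4 rose and 17 fell, 18.6% called against 33.4% of all entries. By direction, 3.54% were higher and 15.0% lower, against 10.7% and 22.8% of all entries. Of 7 tested kinases and phosphatase subunits of SR proteins, 3 fell (42.9%) and 1 rose. *Clk4* (4.27 and 4.30 against 3.04 and 2.63 RPKM) and *Clk1* (8.31 and 8.46 against 6.61 and 5.84 RPKM), kinases that release SR proteins from speckles, fell by 0.52 and 0.40 on the log2 scale (limma, adjusted p = 0.0087 and 0.030). The catalytic subunits of protein phosphatase 1 differed in direction, with a log2 fold change of -0.41 for *Ppp1cb* and 0.42 for *Ppp1cc* (limma, adjusted p = 0.022 and 0.028).

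Of 21 tested SR-related and exon junction genes, 3 fell (14.3%, against 22.8% of all entries) and none rose. These were *Luc7l2* and *Luc7l*, which associate with the U1 snRNP, and *Scaf11*, with log2 fold changes of -0.73, -0.39 and -0.70. Of 23 tested RNA-binding proteins close to the hnRNPs, 4 fell and 1 rose. *Taf15*, an RNA-binding protein that is also a factor of transcription initiation, fell from 4.25 and 3.85 RPKM to 1.89 and 1.70 RPKM, a log2 fold change of -0.99 ± 0.10 (SE, limma, adjusted p = 0.00078), which is beyond the change of any member. *Pcbp2*, *Matr3* and *Khsrp* had log2 fold changes of -0.66, -0.43 and -0.40, and *Sfpq*, a paraspeckle protein, one of 0.56 (limma, adjusted p = 0.011).

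In the core spliceosome, 4 of 37 tested genes fell (10.8%, against 22.8% of all entries) and none rose. *Snrpb2* and *Sf3a2* of the U2 snRNP, *Snrnp200* of U5 and *Snrpa* of U1 had log2 fold changes of -0.36, -0.29, -0.36 and -0.33. Of 9 tested tissue-restricted splicing regulators, *Esrp2*, a regulator of epithelial splicing, rose, with a log2 fold change of 0.29, and none fell. Of 6 tested nonsense-mediated decay genes, *Upf3b* rose from 2.26 and 2.21 RPKM to 3.94 and 3.74 RPKM, a log2 fold change of 0.67 (limma, adjusted p = 0.0023). Of 10 tested genes for import and methylation, *Prmt1*, the main methyltransferase of hnRNPs, and the importin *Ipo5* fell, by 0.57 and 0.42 on the log2 scale (limma, adjusted p = 0.014 and 0.012). Without LoGlu replicate 1 or without HiGlu replicate 2, 11 of the companion genes were called in place of 21. Medians of the lists ran from -0.22 for import and methylation to 0.02 for nonsense-mediated decay, beside -0.11 for all entries.

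**Figure D4:**
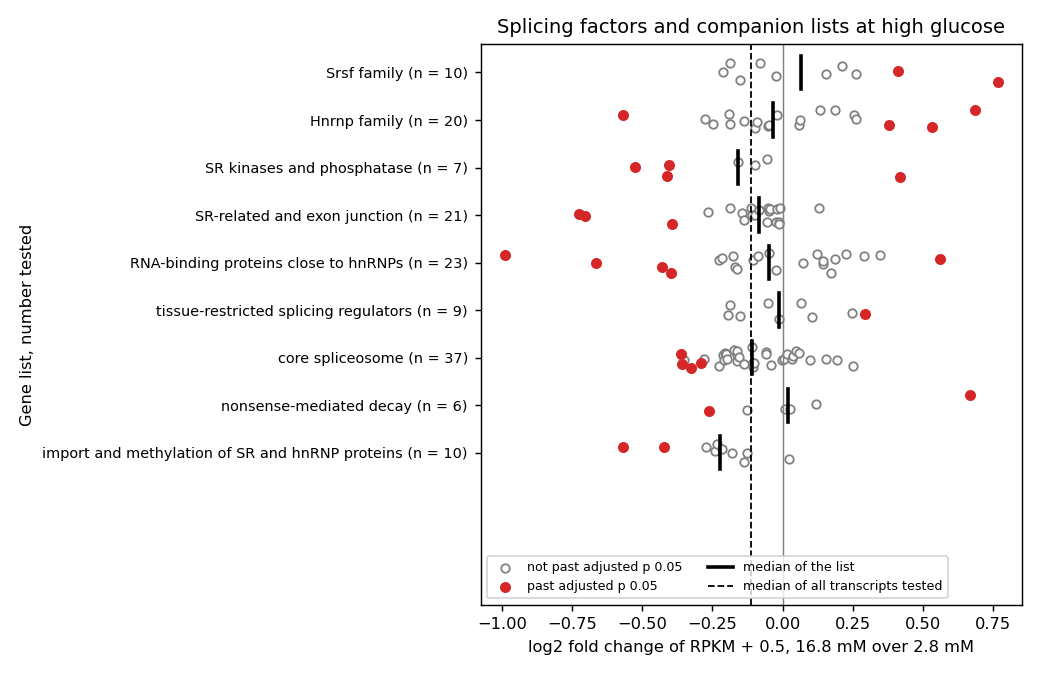
Log2 fold change of RPKM + 0.5 at 16.8 mM over 2.8 mM glucose for each tested gene of the 2 families and the 7 companion lists; red points passed an adjusted p of 0.05, short bars are list medians and the dashed line is the median of all entries (-0.11). In the *Srsf* family 2 points lie apart at the right, and in the lists of SR-related and core spliceosome genes the called points are at the left. Of all entries tested, 10.7% were called higher and 22.8% lower.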

How the data were processed

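RNA-seq of whole mouse islets was compared at 2.8 and 16.8 mM glucose with 2 libraries per group, numbered 1 and 2 by the labels. The authors deposited 1 table of RPKM values per RefSeq transcript. Their processing notes name STAR, bedtools and mm9 (NCBI build 37). How the islet libraries were counted is not given apart in the sources used here. The values step by whole reads over the annotated length, from which depth was recovered (98.6% to 99.0% of short RNA values within 0.1 of a whole read). Such short RNAs do not tell a genomic span from an exon length. Among the members, the span was approximate for 18 of 31. Reads and levels per exon length come from this depth and GENCODE M1, and may include PCR duplicates.

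Members and companion lists were chosen with earlier results of these data known. Entries of a gene with the same 4 values were merged. Where the mean reached 1 RPKM, log2(RPKM + 0.5) was fitted in limma 3.58.1 (R 4.3.3), which understates changes of low genes, with a variance trend, no covariate and a threshold of 0.05. The fit was tested on simulated data. All members could be named, with full values for called members, those of highest level and those with differing entries. Companion genes were named if called, and 1 of them is not reported here. Figures and tables used Python 3.11.15 and matplotlib 3.10.9. The alternatives were 2 other scalings, the variance trend, the minimum, the added value, the threshold, the replicate block, 1 entry per gene, leaving out each library, and limma with voom on rebuilt reads (mean of 20 or more). The level per exon length and the count above the median of all entries were added after seeing the data.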

Additional observations from a re-analysis of the deposited data

How the results depend on the processing

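With 2 libraries per group, their number more than their depth limits the precision, and no group was large enough to test for a library standing apart. The 5 splicing factors called higher and 1 called lower became 9 and 2 with quantile normalization, 12 and 2 with median centring, 2 and 2 with no minimum (28047 entries tested), 8 and 6 with voom on rebuilt reads and 2 and 1 at an adjusted p of 0.01. With each library left out in turn, the median log2 fold change of the 30 splicing factors ran from -0.09 to 0.08. That of all entries ran from -0.16 to -0.06. The 21 companion genes became 42 with quantile normalization, 43 with median centring, 8 with no minimum, 50 with voom and 6 at 0.01, and 11 to 17 with a library left out. The 2628 calls over all entries became 8027 of 19020 with voom and 1191 at 0.01, and 1825 to 2579 with a library left out. *Hnrnpa2b1*, *Srsf1* and *Hnrnpdl* kept their direction under all 15 alternatives and lost the call under 3, 4 and 6 of them, no minimum among them for each (adjusted p = 0.053, 0.087 and 0.087, limma). *Hnrnpdl* also lost it with 0.1 RPKM added (0.054) and with 1 entry per gene (0.053, limma for both). The 15 alternatives do not count the adjusted p threshold of 0.01, at which *Hnrnpa2b1*, *Srsf1* and *Hnrnpdl* were not called either. Over all alternatives the log2 fold change was 0.70 to 0.85 for *Srsf3*, 0.62 to 0.77 for *Hnrnph2* and -0.68 to -0.49 for *Hnrnpul1*. The cause was not tested where a count moved.

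Log2 fold changes near 0 that were not called changed sign. With median centring they were 0.0354 for *Hnrnpa0*, 0.0312 for *Hnrnpk*, 0.064 for *Hnrnpu*, 0.0589 for *Srsf10* and 0.00313 for *Srsf11*, and with quantile normalization 0.00984 for *Hnrnpu* and 0.0613 for *Srsf10*. With a library left out they ran from -0.21 to 0.11 for *Hnrnpa0*, -0.19 to 0.0114 for *Hnrnpab*, -0.10 to 0.0605 for *Hnrnpu*, -0.0266 to 0.14 for *Hnrnpul2*, -0.10 to 0.0496 for *Srsf10* and -0.19 to 0.0258 for *Srsf11*.

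The replicate numbers of the groups are shared, but no label says that a number marks the same animals. Deviations of libraries with the same number correlated at 0.31 across entries. With the replicate number as a block, 8 splicing factors were higher and 5 lower, against 15.7% and 36% of all entries. In that fit 42 companion genes and 4067 entries in all were called. With voom and the block 11 were higher and 8 lower, against 18.5% and 38.9% of all entries. There 96 companion genes and 10921 entries in all were called.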
